A study of Mus musculus with 17 samples.

Results

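The response of Bap1LysM macrophages to RANKL was measured in 5 of the 17 RNA-seq libraries of the study. BMMs, bone marrow macrophages, are raised from marrow in M-CSF, a growth factor they need to live. The 3 Bap1LysM BMM libraries came from cells kept in M-CSF alone. The 2 Bap1LysM osteoclast (OC) libraries, replicates 1 and 2, came from cells given M-CSF and 100 ng/ml RANKL for 24 h, a time at which the cultures hold osteoclast precursors. Bap1LysM mice carry loxP sites on both Bap1 alleles and have the Cre recombinase in the Lyz2 (lysozyme M) locus, so that Bap1 is deleted in cells that have used this myeloid promoter. The Bap1flox littermates carry the same loxP sites without Cre. The legend to the RNA-seq results names 20-week-old male mice as the source of the osteoclasts, and the BMM libraries are not described. For each genotype the response is the difference between OC and BMM libraries, and the 6 Bap1flox libraries of replicates 1 to 3, with 3 BMM and 3 OC libraries, gave the response against which that of the Bap1LysM cells was set. The 6 OC libraries of replicates 4 to 6, which have no BMM partner, were used to look at genotype differences after RANKL in other samples and entered 1 alternative fit of all 17 libraries.

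RANKL binds its receptor RANK on macrophages and acts through TRAF6, NF-kB and AP-1, with costimulation by receptors that signal through DAP12 and FcR gamma. These signals raise NFATc1, the transcription factor that switches on the genes for cell fusion, the sealing zone, acid secretion and matrix digestion, while repressors such as IRF8 and Bcl6 are lowered. The cells also divide and build ribosomes and mitochondria on the way to the mature osteoclast. BAP1 is a deubiquitinase that removes ubiquitin from histone H2A.

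The number 1 libraries of the Bap1LysM cells stood apart from the others in Lyz2. Cre is inserted in this gene, so its reads check the genotype. The methods give the Bap1LysM mice Cre on 1 of the 2 alleles, which leaves 1 intact Lyz2 allele. In CPM, the count of a gene scaled to the counted reads of its library, Lyz2 was at 8722, 35.4 and 29.7 in Bap1LysM BMM libraries 1, 2 and 3 and at 6715 and 13.6 in OC libraries 1 and 2, against 19504 to 21838 in Bap1flox BMM and 7187 to 8560 in Bap1flox OC libraries. BMM library 1 thus kept 42.8% and OC library 1 86.8% of the Bap1flox mean, and the other 3 libraries kept 0.146% to 0.176%. The RANKL response of Lyz2 in Bap1LysM cells was 0.10 ± 2.13 on the log2 scale (adjusted p = 0.98), -0.96 when the replicate number entered as a block (adjusted p = 0.021) and -1.39 without both number 1 libraries (adjusted p = 0.00047). Bap1 itself (chr14:31251450-31259944, plus strand) was counted over the whole gene, which does not separate deleted from intact exons, and read 76.8, 77.1 and 74.8 CPM in the BMM and 77.0 and 87.7 CPM in the OC libraries. Its response of 0.01 ± 0.07 (SE) on the log2 scale did not pass the test (adjusted p = 0.95). The counts of called genes were therefore also run without both number 1 libraries of the Bap1LysM cells. A near-complete loss of Lyz2 reads, as in BMM libraries 2 and 3 and OC library 2, is lower than 1 intact allele would give. Which Cre genotype each library had, and whether the number 1 libraries hold cells with intact Bap1, was not tested.

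The 11 libraries of replicates 1 to 3 held 37967542 to 54195199 counted reads, and mitochondrially encoded genes took 0.481% to 1.07% of them. The labelled cell types carried their markers. The 9 osteoclast markers summed to 117 to 230 CPM in the Bap1LysM BMM libraries and to 5510 and 16563 CPM in OC libraries 1 and 2, and none was at 0 in all 5 libraries. The 8 macrophage markers summed to 8786 to 10034 CPM in BMM and 5300 and 4019 CPM in OC libraries. The 7 stromal markers summed to 334, 963 and 1228 CPM in BMM libraries 1, 2 and 3 and to 369 and 1339 CPM in OC libraries 1 and 2, so both number 1 libraries had the lowest values of their group. The same held for the Bap1flox libraries, with 469 CPM in BMM and 1215 CPM in OC library 1 and at most 2679 CPM in the others. In cultures like these, fewer cells of a type and less RNA per cell cannot be told apart. The labels do not say which libraries came from separate mice. A legend of the study calls the preosteoclast RNA-seq samples biologically independent, and nothing says so of the BMM libraries, so their part of the spread behind the p-values may be technical.

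RANKL changed 27.5% of the expressed genes of Bap1LysM cells, nearly all in the direction they had in Bap1flox cells. At a fold of 1.5 or more, 2021 of 13637 genes (14.8%) rose and 1726 (12.7%) fell (edgeR quasi-likelihood test, Benjamini-Hochberg adjusted p under 0.05). The same fit called 2812 genes (20.6%) higher and 2745 (20.1%) lower in the Bap1flox cells, which had 1 more OC library. The counts of list members that rose or fell are to be read against these shares. The Bap1flox OC libraries also differed less from each other than the 2 Bap1LysM OC libraries did. Genes called in both genotypes numbered 1694 among those that rose, which is 60.2% of the Bap1flox list and 83.8% of the Bap1LysM list, and 1548 among those that fell, which is 56.4% and 89.7%. Of the genes that fell in the Bap1flox cells 1, Cd86, rose in the Bap1LysM cells, and 0 genes went the other way. Of the Bap1flox genes that rose, 2715 had a response above 0 in Bap1LysM cells, and of those that fell, 2681 had a response below 0. Fits that leave out OC library 1, OC library 2 or the number 1 libraries hold only 1 Bap1LysM OC library. Their spread comes from the other groups, so calls gained or lost in them are descriptions. The number of calls depended on the OC library: without OC library 2 there were 1304 genes higher and 1073 lower, and without OC library 1 there were 2407 higher and 2441 lower. Without both number 1 libraries 2378 rose and 2399 fell.

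The 2 OC libraries differed in how far they had moved. Over all 13637 genes the response of library 1, set against the mean Bap1flox response, had a slope of 0.69, and that of library 2 a slope of 0.96. Each Bap1flox library set against the mean of the other 2, with BMM libraries of the same number as baselines, gave slopes of 0.99, 0.91 and 0.94, and the same pairing gave 0.68 and 0.91 for Bap1LysM libraries 1 and 2. These slopes are descriptions across genes, which are not independent. On the first principal component, which held 67.5% of the variance and separated BMM from OC libraries, Bap1LysM OC library 1 lay at 47.2, below the Bap1flox OC libraries at 65.6 to 66.3, and OC library 2 lay above them at 86.6. The Bap1LysM BMM libraries lay at -53.6 to -42.9 on this axis and the Bap1flox BMM libraries at -68.0 to -59.0. For the genes that rose in Bap1flox cells, which were chosen on that contrast, the median log2 response was 1.09 there, 0.65 in Bap1LysM library 1 and 0.93 in library 2. For those that fell it was -1.12, -0.60 and -1.02.

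**Figure D1:**
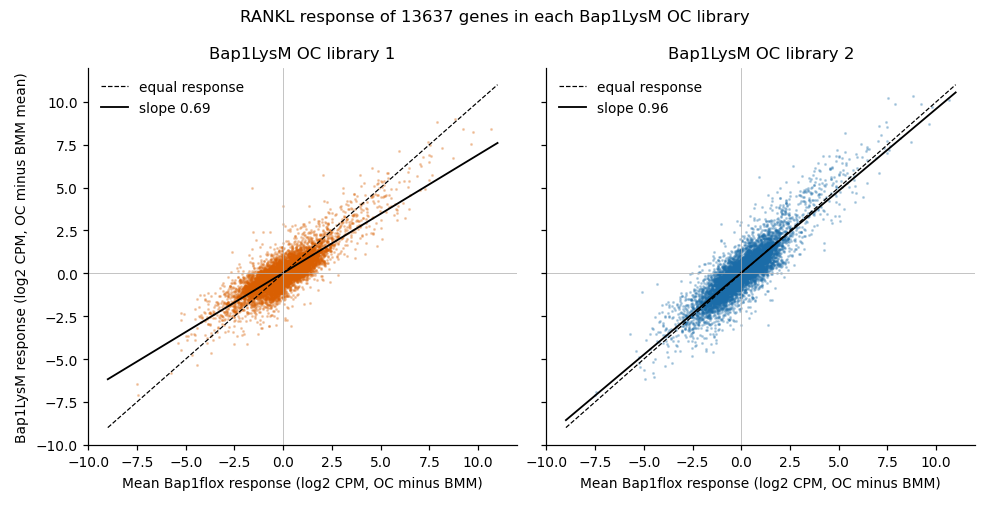
Each point is 1 of 13637 genes, with the mean Bap1flox response on the horizontal axis and the response of Bap1LysM OC library 1 (left) or 2 (right) on the vertical axis, both in log2 CPM. The dashed line marks equal responses and the solid line the fitted slope, 0.69 for library 1 and 0.96 for library 2.

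Transcription factors that carry the RANKL signal rose in Bap1LysM cells. Nfatc1, the master regulator, was at 121, 122 and 127 CPM in BMM libraries 1, 2 and 3 and at 407 and 1000 CPM in OC libraries 1 and 2. Its log2 response was 2.38 ± 0.29 (adjusted p = 0.00032), against 2.12 in Bap1flox cells. Prdm1, which encodes the repressor Blimp1, went from 8.66, 6.29 and 9.72 to 44.9 and 122 CPM (3.21 ± 0.40, adjusted p = 0.00037). For both genes the OC libraries lay above every BMM library, as they did for 33.2% of all genes, and library 2 was more than 2 times as high as library 1. Fos, an AP-1 subunit, went from 149.9, 58.2 and 57.4 to 311 and 349.9 CPM, with BMM library 1 the highest of its group (1.77 ± 0.41, adjusted p = 0.0077, against 2.68 in Bap1flox cells). The AP-1 family genes Jdp2 (5.44 ± 0.43) and Fosl2 (3.16 ± 0.32) rose too. In all, 11 of 22 osteoclast transcription factors rose and 1, Etv5 (-1.74), fell. In Bap1flox cells 10 rose and 4 fell. Leaving out the number 1 libraries gave 13 higher and 3 lower in Bap1LysM cells.

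Receptors and adaptors upstream of these factors gave a mixed picture in both genotypes. Tnfrsf11a, the gene for RANK, was at 169, 166 and 107 CPM in Bap1LysM BMMs and 261 and 319.8 CPM in OCs. It rose by 0.87 ± 0.18 (adjusted p = 0.0039), and the Bap1flox response was 1.36, with 79.4 to 86.3 CPM in BMMs and 223 to 261 CPM in OCs. All 3 Bap1LysM BMM libraries exceeded the Bap1flox BMM libraries in this gene before RANKL. Oscar, a costimulatory receptor that pairs with FcR gamma, had 2 reads in the 3 BMM libraries together and 23.4 and 54.1 CPM in the OC libraries, a ratio of 2590 with a 95% counting interval of 716 to 21393. Csf1r, the M-CSF receptor, was at 2927, 2766 and 3522 CPM in BMMs and fell to 1585 and 1553 CPM (-1.07 ± 0.17, adjusted p = 0.0013). Over the 17 receptors and adaptors 4 rose and 6 fell in Bap1LysM cells, and 4 rose and 8 fell in Bap1flox cells. These counts were 6 and 7 without the number 1 libraries. In 7 of the 17 (41.2%) the response of both Bap1LysM libraries lay above that of every Bap1flox library, against 22.1% of all genes. The median difference between the responses was 0.21. Without the number 1 libraries it was 0.07, with 9 of the 17 differences above 0 and 8 below. Syk, the kinase behind DAP12 and FcR gamma, passed the test in Bap1LysM cells with 0.58 ± 0.14 (adjusted p = 0.010, but 0.057 without OC library 2) and had a response of -0.02 in Bap1flox cells. The difference in Syk did not pass adjustment (0.59, unadjusted p = 0.011, adjusted p = 0.34).

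Of 21 NF-kB subunits and feedback genes 10 rose and 0 fell in Bap1LysM cells. Traf1, a TRAF adaptor that NF-kB itself induces, went from 3.09, 2.21 and 4.05 to 177 and 296 CPM (6.12 ± 0.28, adjusted p = 3.2e-06). Traf2 and Traf3 rose by 1.24 ± 0.10 and 1.33 ± 0.09, against 1.28 and 1.35 in Bap1flox cells. In Bap1flox cells 10 genes rose and 2 fell. The list's median was 0.57 and 0.67 in Bap1LysM libraries 1 and 2 and 0.37 to 0.59 in the Bap1flox libraries, which overlap. The counts were 10 and 1 without the number 1 libraries. Over all genes tested the medians were 0.01 in Bap1LysM and -0.03 in Bap1flox cells.

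Most repressors of osteoclast formation fell. Irf8, which blocks NFATc1, was at 224, 189 and 238 CPM in BMM libraries and 102 and 56.2 CPM in OC libraries 1 and 2 (-1.54 ± 0.24, adjusted p = 0.0012, against -2.10 in Bap1flox cells, where the OC libraries lay at 63.7 to 68.6 CPM). Both OC libraries lay below every BMM library in this gene, as they did for 21.7% of all genes, and OC library 1 was the higher of the 2. Maf (-2.54 ± 0.28) and Klf2 (-1.96 ± 0.17) fell as well, and Bcl6 did not pass (-0.47 ± 0.35, adjusted p = 0.31), with 74.5, 50.7 and 40.6 CPM in BMMs and 57.9 and 26.5 CPM in OCs. With the replicate number as a block the response of Bcl6 was -0.75 and passed (adjusted p = 0.011). Of 15 repressors 11 fell and 1, Klf4 (1.01 ± 0.30, adjusted p = 0.024, 0.24 without OC library 1 and 0.079 without BMM library 3), rose, where Bap1flox cells had 10 lower and 1 higher. The count rested on OC library 2: without it 5 repressors fell, and without the number 1 libraries 13 fell. Id1, an inhibitor of basic helix-loop-helix factors, stood out by its level before RANKL, with 63.9, 42.1 and 14.3 CPM in Bap1LysM BMM libraries against 1.94 to 4.54 CPM in Bap1flox BMMs, and it fell to 13.3 and 4.58 CPM (-2.24 ± 0.67, adjusted p = 0.023). Without OC library 2 or BMM library 1 this call was lost (adjusted p = 0.15 and 0.064). The Bap1flox response of Id1 was -0.08.

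Genes with which an osteoclast resorbs bone were among those with the largest responses of the Bap1LysM cells. Acp5, the tartrate-resistant acid phosphatase (chr9:22126731-22135746, minus strand), went from 7.56, 7.71 and 5.14 CPM in BMMs to 818 and 2752 CPM in OC libraries 1 and 2. Its log2 response was 7.90 ± 0.55 (adjusted p = 2.3e-05), and that of Bap1flox cells 7.47, with 1316 to 2319 CPM in the Bap1flox OC libraries. Ctsk, the collagen-cleaving cathepsin K (chr3:95499286-95509362, plus strand), went from 10.9, 4.11 and 4.51 to 541 and 1389 CPM (7.07 ± 0.54, adjusted p = 3.9e-05, Bap1flox 7.46). In both genes OC library 1 lay below and OC library 2 above the Bap1flox range. Mmp9, a gelatinase, went from 44.2, 67.5 and 166 to 3544 and 11274 CPM (6.20 ± 0.91, adjusted p = 0.00080). Car2, carbonic anhydrase II, which supplies protons, had 20 reads in the BMM libraries together and 53.4 and 161 CPM in OCs (9.42 ± 0.53). Of 22 bone resorption genes 13 rose and 3 fell in each genotype, and with the number 1 libraries left out 13 rose and 4 fell, and without OC library 2 13 rose and 1 fell. Those that fell in Bap1LysM cells were lysosomal or trafficking genes: Ctsb (-1.41), Ctsd (-1.03, adjusted p = 0.026, not past the test without OC library 2, BMM library 1 or BMM library 3 at adjusted p = 0.095, 0.065 and 0.059) and Plekhm1 (-0.78). The list's median was 0.91 in Bap1LysM and 0.98 in Bap1flox cells, with 0.74 in library 1 and 1.25 in library 2 and 0.76 to 1.13 over the Bap1flox libraries.

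Genes of acid secretion, fusion and adhesion moved in both directions, with osteoclast members such as Atp6v0d2, Dcstamp and Itgb3 higher, and the median responses of the integrin and podosome lists were both 0.01. Of 18 subunits of the vacuolar proton pump 8 rose and 1, Atp6v0a1 (-1.27), fell, and Bap1flox cells gave the same counts. Leaving out the number 1 libraries raised this to 13 higher. Atp6v0d2, the osteoclast subunit that is also needed for fusion, went from 153, 27.6 and 36.5 to 339 and 635 CPM, with BMM library 1 well above the other BMM libraries (2.59 ± 0.63, adjusted p = 0.0095, but 0.064 without OC library 2). Dcstamp and Ocstamp, the membrane proteins of cell fusion, went from 0.761, 0.177 and 0.287 to 61.3 and 104 CPM and from 0.873, 0.309 and 0.306 to 91.6 and 228 CPM. Their responses were 7.54 ± 0.50 and 8.21 ± 0.55, against 8.11 and 9.66 in Bap1flox cells. Itgb3, the beta 3 integrin chain of the vitronectin receptor, rose from 13.0, 9.50 and 10.49 to 87.8 and 118 CPM (3.11 ± 0.21, adjusted p = 1.9e-05, Bap1flox 2.98). Src, the kinase of the ruffled border, went from 14.5, 12.1 and 23.2 to 237 and 557 CPM (4.45 ± 0.37). In all, 10 of 19 fusion genes, 7 of 16 integrins and 8 of 30 podosome genes rose, and 2, 4 and 2 fell, where Bap1flox cells had 10, 6 and 8 higher and 4, 5 and 3 lower. With the number 1 libraries left out 10, 7 and 10 rose and 4, 4 and 3 fell, and without OC library 2 only 5 podosome genes rose and 1 fell. Itga6, a laminin-binding integrin chain, was among those that fell, from 223, 329.5 and 252 to 54.6 and 36.6 CPM (-2.63 ± 0.23, Bap1flox -2.37). Calcr, the calcitonin receptor, had 0 reads in the BMM libraries and 3.26 and 9.30 CPM in OCs, so that with a floor of 3 reads over the group it was at least 298-fold higher.

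**Figure D2:**
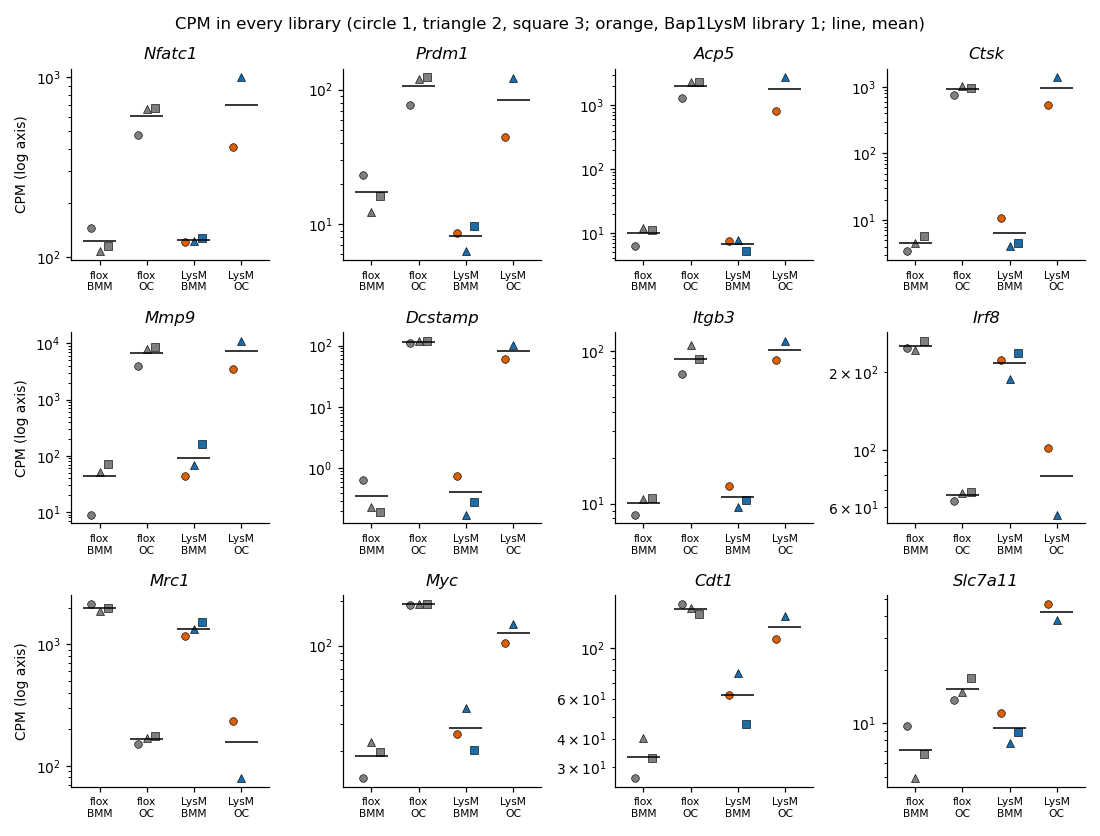
CPM on a log axis in each Bap1flox and Bap1LysM library for 12 genes, with circles, triangles and squares for libraries 1, 2 and 3, orange for the number 1 libraries of Bap1LysM cells and a line at each group mean. Osteoclast genes such as Acp5 and Ctsk are higher in Bap1LysM OC library 2 than in library 1, while Slc7a11 lies above all Bap1flox OC libraries in both.

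The genes with the largest rises included Msln, Calcr, Oscar, Slc6a4, Cyp2s1, Mst1r, Car2 and Rufy4. Msln, which encodes mesothelin, had 0 reads in the BMM libraries and was at least 469-fold higher on the same floor. Slc6a4, the serotonin transporter, was at 14.5 and 105 CPM in OC libraries 1 and 2 against 24.4 to 35.4 CPM in Bap1flox OCs, with 7 reads over the 3 BMM libraries. Slco2b1 and Fcrls led the genes with the largest falls. Slco2b1, an organic anion transporter, fell from 13.6, 53.3 and 50.4 to 0.212 and 0.263 CPM (-7.44 ± 0.67), and Fcrls fell from 123, 162 and 159 to 1.66 and 1.16 CPM (-6.78 ± 0.27). Fcrls was lower in every Bap1LysM BMM library than in any Bap1flox BMM library (425 to 573 CPM). Cbr2 (-5.31), the haemoglobin receptor Cd163 (-4.75), the coagulation factor chain F13a1 (-4.66), Rnase4 (-4.57), Ctla2b (-4.40) and Slit1 (-4.39) followed.

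Macrophage identity genes fell, to a different extent in the 2 OC libraries. Mrc1, the mannose receptor, fell from 1172, 1338 and 1522 to 232 and 79.3 CPM (-3.18 ± 0.41, adjusted p = 0.00042), with 152 to 174 CPM in Bap1flox OCs. Mertk, the receptor for apoptotic cells, fell from 261, 186 and 227 to 91.5 and 39.7 CPM (-1.86 ± 0.39, adjusted p = 0.0046), with 18.9 to 35.7 CPM in Bap1flox OCs. For Mrc1 OC library 1 lay above and OC library 2 below the Bap1flox range, and for Mertk both lay above it. Over 28 macrophage identity and scavenger receptor genes 20 fell and 2 rose in Bap1LysM cells, and 21 fell and 2 rose in Bap1flox cells. The list's median response was -1.19 in Bap1LysM library 1 and -2.85 in library 2, on either side of -2.32 to -2.19 in the Bap1flox libraries. With the number 1 libraries left out 19 of 27 genes fell and 1 rose.

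Toll-like receptor and lysosomal genes also had medians nearer to 0 in library 1 than in library 2. Of 20 Toll-like receptors and adaptors 5 fell in Bap1LysM and 12 in Bap1flox cells, with medians of -0.21 in Bap1LysM library 1, -0.93 in library 2 and -0.96 to -0.82 in the Bap1flox libraries. Tlr9, a receptor for unmethylated DNA, read 28.4, 18.4 and 30.5 CPM in BMMs and 36.4 and 14.8 CPM in OC libraries 1 and 2 (-0.09 ± 0.39, adjusted p = 0.88), with a response of -1.58 in Bap1flox cells. The number that fell was 11 without the number 1 libraries, 12 without OC library 1 and 2 without OC library 2. In 10 (50.0%, against 22.1% of all genes) both Bap1LysM libraries lay above the Bap1flox responses. Without the number 1 libraries 1 interaction lay above and 3 below 0 at an unadjusted p under 0.05. Of 35 lysosomal hydrolases and membrane proteins 13 fell and 2 rose in Bap1LysM cells, against 22 and 1 in Bap1flox cells, with medians of -0.22 and -0.98 in libraries 1 and 2 and -0.83 to -0.76 in the Bap1flox libraries. Arsb (2.32 ± 0.24), the arylsulfatase B gene, and Smpd1 (0.95 ± 0.11), the acid sphingomyelinase gene, were the 2 that rose. The number that fell was 7 without OC library 2, 8 without BMM library 1 or 3, 23 without OC library 1 and 21 without the number 1 libraries. In 13 (37.1%, against 22.1% of all genes) both Bap1LysM libraries lay above the Bap1flox responses. With the number 1 libraries left out 4 interactions lay above and 4 below 0 at an unadjusted p under 0.05.

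Nuclear genes of the respiratory chain and of the tricarboxylic acid cycle rose in both genotypes. Ppargc1b, the PGC1 beta coactivator of mitochondrial biogenesis, went from 3.71, 5.08 and 4.16 to 36.7 and 92.9 CPM (3.78 ± 0.31, adjusted p = 5.0e-05, Bap1flox 3.90). Of 48 nuclear genes of the respiratory chain 32 rose and 0 fell in Bap1LysM cells, and 40 rose and 0 fell in Bap1flox cells. Their median was 0.41 in library 1 and 0.90 in library 2, with 0.85 to 0.93 in the Bap1flox libraries. The number that rose was 9 without OC library 2 and 37 without the number 1 libraries. Cyc1, of complex III, went from 83.5, 95.3 and 84.9 to 205 and 399.7 CPM (1.66 ± 0.19). In the tricarboxylic acid cycle 18 of 30 genes rose, led by Idh3a (25.6, 36.3 and 19.9 to 82.4 and 163 CPM, 2.05 ± 0.27), and 1, Idh1 (-0.61 ± 0.12), fell, against 21 and 1 in Bap1flox cells. The number that rose was 10 without OC library 2 and 21 without the number 1 libraries. Of 28 glycolysis genes 11 rose and 4 fell, against 11 and 5 in Bap1flox cells, with 7 higher under the replicate block, 5 without OC library 2 and 6 without BMM library 3. Slc16a1, a lactate transporter, rose from 7.77, 10.03 and 5.06 to 23.8 and 28.8 CPM (1.69 ± 0.24, Bap1flox 2.45). Hk2, a hexokinase, fell from 60.3, 62.9 and 47.5 to 35.7 and 34.6 CPM (-0.79 ± 0.12, Bap1flox -0.36). Of 32 genes of the PGC1 beta and fatty acid oxidation list 6 rose and 2 fell, with 10 and 5 without OC library 1 and 2 higher without OC library 2. Of the 13 mitochondrially encoded genes 0 passed at a fold of 1.5 in either genotype.

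The difference between the 2 responses was tested as the interaction of genotype and RANKL. With edgeR 0 of 13637 genes passed the adjusted threshold, and 1718 had an unadjusted p under 0.05, of which 884 (6.48%) lay above and 834 (6.12%) below the Bap1flox response. DESeq2 called 113 genes and voomWithQualityWeights 0, with 873 at an unadjusted p under 0.05. Without OC library 2 edgeR called 119 genes, and without OC library 1 it called 2. No single gene is therefore called weaker or stronger here, and the responses are given by library. A response is said to lie below or above when both Bap1LysM libraries lay outside all 3 Bap1flox libraries. Over all genes 22.1% lay above and 19.9% below in this sense. The libraries of 1 genotype share a BMM baseline in these values, so a shift of that baseline moves both. Of 35 gene lists, 5 had medians above and 5 had medians below the Bap1flox libraries in both Bap1LysM libraries. These are smaller shares than the 22.1% and 19.9% of single genes. Above lay the integrin, MHC class II, BAP1 complex, Polycomb and BCL2 family lists. Below lay the podosome, cell cycle, Myc and ribosome biogenesis, glutathione and progenitor lists.

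**Figure D3:**
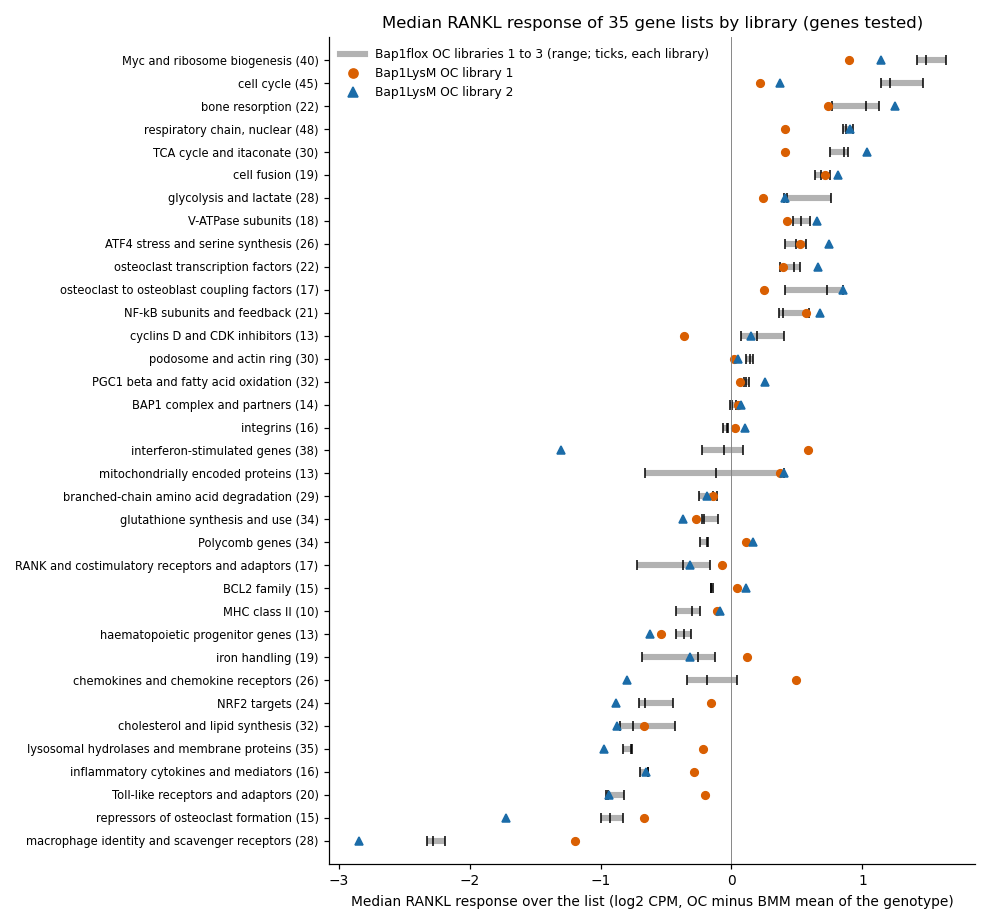
Median log2 response of 35 gene lists in each library, with the number of genes tested in brackets, Bap1flox libraries in grey and Bap1LysM libraries 1 and 2 as an orange circle and a blue triangle. The cell cycle list lies at 0.22 and 0.37 in the Bap1LysM libraries and at 1.14 to 1.47 in the Bap1flox libraries.

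Of the 35 lists the cell cycle had the lowest median difference from the Bap1flox response, at -1.07. Without OC library 1 it was -0.98, and that of the interferon-stimulated genes was lower at -1.54. Of 45 genes for DNA replication and mitosis, 4 rose and 0 fell in Bap1LysM cells, and 41 rose and 0 fell in Bap1flox cells. The number that rose was 1 without OC library 2 and 2 without BMM library 1 or 3. The median log2 response was 0.25 in Bap1LysM and 1.31 in Bap1flox cells. By library it was 0.22 and 0.37 in Bap1LysM libraries 1 and 2 and 1.14 to 1.47 in the Bap1flox libraries. The response lay below all Bap1flox libraries in 44 of 45 genes (97.8%, against 19.9% of all genes), and 40 of 45 (88.9%, against 6.12%) had an interaction with an unadjusted p under 0.05, with a smallest adjusted p of 0.33. In other fits cell cycle interactions passed adjustment, 37 of 45 with all 17 libraries and a term for the library set and 6 with DESeq2, all below 0. Without the number 1 libraries 41 of 45 had such a p, and all 45 differences were below 0, with a median of -1.10.

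The genotypes differed at both ends of the comparison. The summed level of the 45 genes was 2279, 4201 and 2509 CPM in Bap1LysM BMM libraries 1, 2 and 3 and 1614, 2251 and 1822 CPM in the Bap1flox BMM libraries, so each Bap1LysM value exceeded all 3 of the latter. After RANKL it was 3393 and 4162 CPM in Bap1LysM OC libraries 1 and 2 and 5676, 4905 and 4786 CPM in Bap1flox OC libraries. Bap1LysM BMM libraries lay above all Bap1flox BMM libraries in 19 of 45 genes (against 13.5% of all genes). BMM library 2 had the highest sum, and without it 16 of 45 genes rose in Bap1LysM cells and 28 had an interaction below 0 at an unadjusted p under 0.05. With OC and BMM libraries paired by number the medians were 0.57 for number 1 and -0.14 for number 2.

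Cdt1, the licensing factor that loads the replicative helicase (chr8:122568015-122573128, plus strand), was the member with the smallest p among those that rose. It was at 62.2, 78.2 and 46.4 CPM in Bap1LysM BMM libraries and 109.97 and 139 CPM in OC libraries 1 and 2, and in Bap1flox cells at 26.9 to 40.2 CPM in BMM and 141 to 157 CPM in OC libraries. Its response was 0.89 ± 0.20 (adjusted p = 0.0061) against 1.99, a difference of -1.09 (unadjusted p = 0.0025). Mybl2, a transcription factor of the G2 programme (15.8, 30.4 and 14.7 to 43.0 and 68.3 CPM, 1.35 ± 0.33, Bap1flox 2.74) and the mitotic checkpoint kinase Bub1 (13.5, 33.4 and 19.3 to 38.4 and 53.7 CPM, 0.97 ± 0.30, Bap1flox 1.94) rose with it. Without OC library 2 the calls of Mybl2 and Bub1 were lost (adjusted p = 0.084 and 0.17). Bub1 did not pass without BMM library 1 either (adjusted p = 0.062) or without BMM library 3 (adjusted p = 0.085). Gins2, a subunit of the replicative helicase (chr8:120578633-120589304, minus strand), had the smallest interaction p of the list. It was at 18.6, 23.9 and 15.4 CPM in BMM libraries and 18.6 and 17.1 CPM in OC libraries, which overlap, and its response of -0.20 ± 0.22 did not pass (adjusted p = 0.51). The Bap1flox libraries were at 9.50 to 14.7 CPM in BMMs and 24.9 to 32.1 CPM in OCs, and the difference was -1.27 (unadjusted p = 0.0019, adjusted p = 0.33).

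Promoter sequence from RefSeq on GRCm38.p6, in windows of 300 bases around the start site, was found for 37 of the 45 genes. One of the E2F words TTTGGCGC, TTTCCCGC, TTTGCCGC and TTTCGCGC stood on either strand in 8 of these (21.6%), against 4.69% of 9841 tested genes and 2.6% of all 27025 genes with a promoter. The word CCAAT stood in 28 (75.7%), against 42.8% of tested genes. Shown are the 3 genes with such a word and the smallest interaction p, with the matches in capitals, of which Mcm5 and Mcm6 were named for this match alone. Cdt1 lies at chr8:122567765-122568064 on the plus strand and Mcm5 at chr8:75109259-75109558 on the plus strand. Mcm6 lies at chr1:128359656-128359955 on the minus strand. In Mcm5 and Mcm6 matches on both strands overlap, which makes longer runs of capitals.
Cdt1: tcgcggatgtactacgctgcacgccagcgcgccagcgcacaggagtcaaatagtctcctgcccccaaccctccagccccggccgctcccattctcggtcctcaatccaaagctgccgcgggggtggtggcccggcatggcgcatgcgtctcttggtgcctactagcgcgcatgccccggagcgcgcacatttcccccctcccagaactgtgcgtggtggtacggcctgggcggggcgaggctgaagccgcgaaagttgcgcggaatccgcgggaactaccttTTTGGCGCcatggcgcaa
Mcm6: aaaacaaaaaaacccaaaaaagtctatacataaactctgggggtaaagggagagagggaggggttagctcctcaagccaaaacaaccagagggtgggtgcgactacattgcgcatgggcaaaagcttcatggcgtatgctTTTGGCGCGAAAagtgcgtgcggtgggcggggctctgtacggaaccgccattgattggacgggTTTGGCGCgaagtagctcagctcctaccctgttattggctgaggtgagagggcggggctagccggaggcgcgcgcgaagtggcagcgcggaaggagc
Mcm5: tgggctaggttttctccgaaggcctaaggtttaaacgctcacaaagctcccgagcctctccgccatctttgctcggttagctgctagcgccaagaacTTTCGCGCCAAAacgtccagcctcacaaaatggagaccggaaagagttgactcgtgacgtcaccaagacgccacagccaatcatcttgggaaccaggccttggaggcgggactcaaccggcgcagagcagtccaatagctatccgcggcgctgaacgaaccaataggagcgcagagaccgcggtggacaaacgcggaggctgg
Cdt1 holds 1 match, Mcm6 3 and Mcm5 2. Mcm5 and Mcm6 are subunits of the replicative helicase. The response of Mcm6 was 0.56 and 0.63 in Bap1LysM libraries 1 and 2 and 1.79 to 2.01 in the Bap1flox libraries, with a difference of -1.28 (unadjusted p = 0.0027, adjusted p = 0.33). The response of Mcm5 was 0.56 and 0.41 in the Bap1LysM and 1.86 to 2.24 in the Bap1flox libraries, with a difference of -1.55 (unadjusted p = 0.0027). A match describes the letters only, and binding was not measured.

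**Figure D4:**
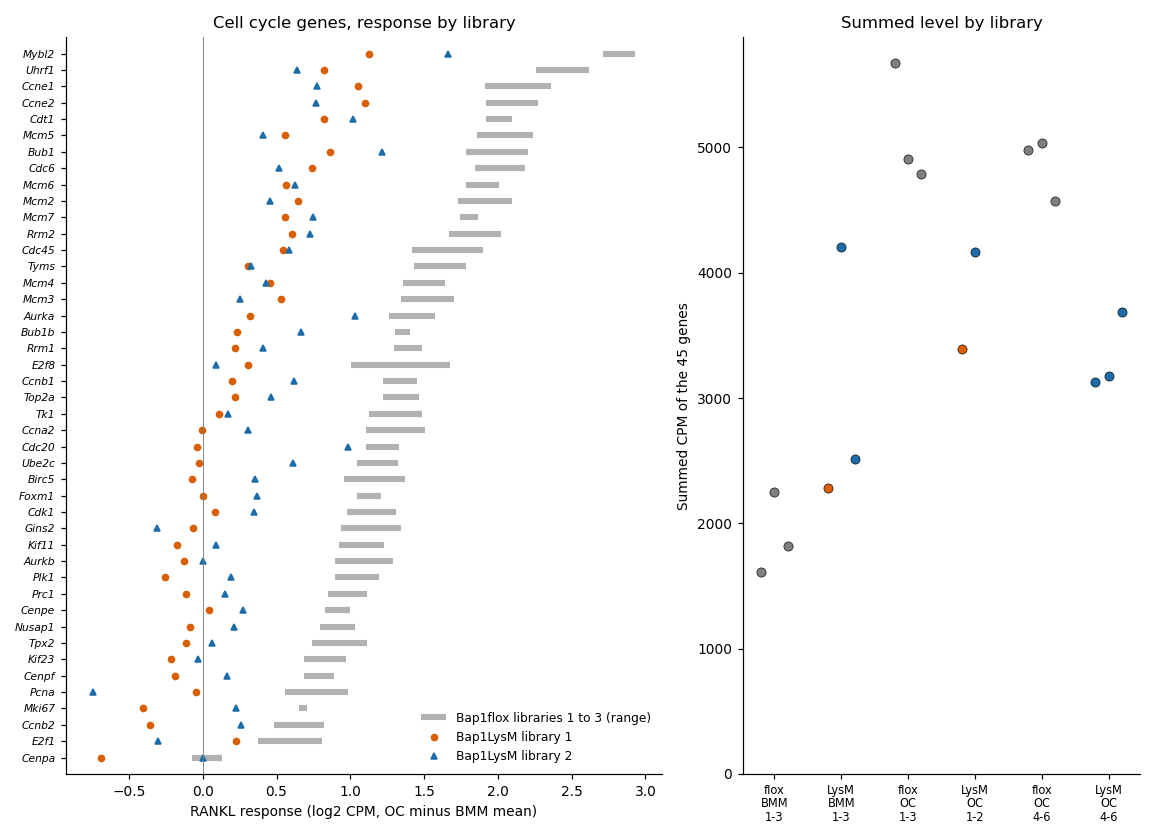
Left, log2 response of 44 of the 45 cell cycle genes, with the range of the 3 Bap1flox libraries as a grey bar and Bap1LysM libraries 1 and 2 as an orange circle and a blue triangle. Right, summed CPM of the 45 genes in each library, which in OC replicates 4 to 6 is 4572 to 5038 in Bap1flox and 3128 to 3686 in Bap1LysM cells.

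The same genes were lower in other libraries after RANKL. In OC replicates 4 to 6, with 3 libraries a genotype, 39 of the 45 genes were lower in Bap1LysM cells by edgeR at an adjusted p under 0.05 and 0 were higher, against 18.2% lower and 15.4% higher over 12588 genes. The median difference was -0.50. Summed CPM was 3128, 3172 and 3686 in Bap1LysM and 4976, 5038 and 4572 in Bap1flox OC libraries 4, 5 and 6. These libraries show the level after RANKL, not the response. In the same libraries the 9 neutrophil markers were all higher in Bap1LysM cells, with a median difference of 1.90, and summed to 595, 437 and 584 CPM in Bap1LysM and 118, 189.8 and 127 CPM in Bap1flox libraries 4, 5 and 6. The part of these cells in the difference was not tested.

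Among regulators of the cycle outside this list, Cdk6 rose in Bap1LysM cells from 37.0, 41.9 and 20.6 to 76.5 and 78.0 CPM (1.12 ± 0.24, adjusted p = 0.0051). The list of cyclins D and CDK inhibitors holds 13 genes, the kinase Cdk6 among them. Only Cdk6 rose at a fold of 1.5, and Cdkn1b (-0.68), Ccnd2 (-1.59) and Cdkn2d (-0.73) fell. These 3 did not pass without OC library 1 (adjusted p = 0.077, 0.077 and 0.064), nor did Cdkn2d under the block (adjusted p = 0.12) or without BMM library 2, BMM library 3 or OC library 2 (adjusted p = 0.12, 0.092 and 0.23). Cdkn1a, the p21 gene, passed the test with a smaller fold (-0.56 ± 0.13, Bap1flox -0.74), but not without OC library 2 (adjusted p = 0.050). The responses lay below the Bap1flox libraries in 7 of 13 genes (against 19.9% of all genes).

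Ribosome biogenesis was induced in Bap1LysM cells, with most members below the Bap1flox response. Myc, the transcription factor that drives it, was at 25.9, 38.5 and 20.0 CPM in BMMs and 105 and 140.1 CPM in OC libraries 1 and 2. Its response was 2.02 ± 0.25 (adjusted p = 0.00035), against 3.18 in Bap1flox cells, which reached 187 to 190.2 CPM. The difference of -1.16 had an unadjusted p of 0.0071 and an adjusted p of 0.33. Of 40 genes of Myc and ribosome biogenesis 32 rose and 1, the Myc antagonist Mxd4 (-1.52 ± 0.25), fell in Bap1LysM cells, and 34 rose and 2 fell in Bap1flox cells. The median difference between the responses was -0.37, -0.25 without the number 1 libraries of Bap1LysM cells and -0.09 without those of both genotypes. Nop56, of the box C/D snoRNP, went from 44.1, 55.1 and 34.98 to 100.0 and 129 CPM (1.25 ± 0.18, Bap1flox 2.00), and the ribosome assembly gene Rrs1 from 23.6, 29.9 and 20.6 to 60.8 and 93.6 CPM (1.54 ± 0.18, Bap1flox 2.07). Both Bap1LysM libraries lay below the Bap1flox libraries in 30 of 40 genes (75.0%, against 19.9%), while 7 (17.5%, against 6.12%) had an interaction below 0 at an unadjusted p under 0.05. That number was 1 without OC library 1 or both number 1 libraries, 4 without BMM library 2, 22 without BMM library 3, 18 without OC library 2 and 24 under the block. Summed CPM was 1940, 2329 and 1964 in BMM libraries and 3318 and 4600 in OC libraries 1 and 2, against 4671, 4470 and 4425 in Bap1flox OCs. In OC replicates 4 to 6, 19 of the 40 were lower in Bap1LysM cells and 1 was higher, against 18.2% and 15.4% of all genes, in the libraries with the higher neutrophil markers. The E-box CACGTG stood in 8 of 34 matched promoters (23.5%), against 11.8% of tested genes. An E2F word stood in 4 of them (11.8%, against 4.69%) and CCAAT in 9 (26.5%, against 42.8%).

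Some transport and glutathione genes lay above the Bap1flox response. Slc7a11, the cystine importer that feeds glutathione synthesis (chr3:50364936-50443613, minus strand), was at 11.4, 7.75 and 8.88 CPM in Bap1LysM BMM libraries and 46.9 and 37.8 CPM in OC libraries 1 and 2. Its response was 2.08 ± 0.29 (adjusted p = 0.00058). In Bap1flox cells it was at 4.92 to 9.63 CPM in BMMs and 13.5 to 18.0 CPM in OCs, a response of 0.94. Both Bap1LysM OC libraries thus lay above every Bap1flox OC library, and the difference of 1.14 had an unadjusted p of 0.015 and an adjusted p of 0.34. In OC replicates 4 to 6 the gene was higher in Bap1LysM cells by 1.01 (adjusted p = 0.0028). Gstt1, a glutathione transferase, went from 0.179, 0.685 and 0.993 to 30.0 and 52.8 CPM (5.93 ± 0.56, Bap1flox 3.90), and its neighbour in the family Gstt3 from 2.80, 3.38 and 3.09 to 8.51 and 13.4 CPM (1.71 ± 0.17, Bap1flox 0.48). Both Gstt genes were lower in the Bap1LysM than in the Bap1flox BMM libraries (1.199 to 3.18 and 6.54 to 7.62 CPM). In the OC libraries both genes overlapped the Bap1flox range, which was 24.7 to 44.7 CPM for Gstt1 and 10.3 to 11.4 CPM for Gstt3. Ggt5, a glutamyl transferase, fell to 8.45 and 4.48 CPM (-1.96 ± 0.40), and Bap1flox cells fell to 1.30 to 2.66 CPM (-4.39). Of 34 glutathione genes 8 rose and 10 fell in Bap1LysM cells, and 4 rose and 12 fell in Bap1flox cells, and at an unadjusted p under 0.05 7 (20.6%, against 6.48%) had an interaction above 0 and 2 below 0. Without the number 1 libraries 8 rose and 14 fell, with 5 such interactions above and 6 below 0, and without OC library 1 there were 4 above and 6 below. The list's median was -0.27 and -0.37 in Bap1LysM libraries 1 and 2 and -0.22 to -0.10 in the Bap1flox libraries, while the median of the differences gene by gene was 0.12, and with all 17 libraries the list's median was -0.26 in Bap1LysM and -0.32 in Bap1flox cells.

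Cdc42bpg, Cd86 and Cxcr4 had a response above 0 in both Bap1LysM libraries and below 0 in all 3 Bap1flox libraries. Cdc42bpg, a kinase that acts under Cdc42 (chr19:6306456-6325652, plus strand), had the smallest interaction p of all genes. It rose from 23.7, 25.0 and 26.8 to 41.3 and 45.4 CPM in Bap1LysM cells (0.68 ± 0.08, adjusted p = 0.00031) and was at 42.1 to 47.3 CPM in Bap1flox BMMs and 41.4 to 43.6 CPM in Bap1flox OCs (-0.26). The difference of 0.94 had an unadjusted p of 7.6e-06 and an adjusted p of 0.10. The genotypes were apart in BMMs and overlapped in OCs. Cd86, a T cell costimulatory ligand (chr16:36603869-36666081, minus strand), was at 3.09, 3.75 and 3.94 CPM in BMMs and 8.86 and 5.64 CPM in OCs (0.93 ± 0.31, adjusted p = 0.035), and had a response of -0.90 in Bap1flox cells. Its call was lost without any 1 of BMM libraries 1, 2 and 3 (adjusted p = 0.089, 0.078 and 0.063) and without OC library 1 (adjusted p = 0.28). Cxcr4, the CXCL12 receptor (chr1:128588199-128592293, minus strand), rose from 64.2, 36.1 and 49.5 to 108 and 108 CPM (1.00 ± 0.26, adjusted p = 0.014, Bap1flox -0.38). For Cd86 and Cxcr4 both Bap1LysM OC libraries lay above all Bap1flox OC libraries (3.28 to 4.28 and 62.4 to 79.5 CPM), and in OC replicates 4 to 6 the genes were higher in Bap1LysM cells by 1.66 and 1.14 (adjusted p = 8.7e-05 and 0.00036). Cdc42bpg was lower there, with a difference of -0.42 (adjusted p = 0.020). In those libraries the neutrophil, plasma cell and dendritic cell markers tested were all higher in Bap1LysM cells. The part of such cells in these differences was not tested.

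Of the other genes with the smallest interaction p above 0, all but Tle3 were lower in every Bap1LysM than in any Bap1flox BMM library. P2ry14, a receptor for UDP sugars, rose from 5.28, 3.64 and 4.39 to 27.0 and 34.1 CPM (2.67 ± 0.24), and Bap1flox cells were at 15.1 to 24.0 CPM in BMMs and 30.9 to 33.4 CPM in OCs (0.67). Setd7, a lysine methyltransferase, was at 42.9, 48.3 and 51.4 CPM in BMMs and 38.4 and 45.04 CPM in OCs (-0.29 ± 0.12, adjusted p = 0.091), and at 109 to 143 and 56.5 to 60.3 CPM in Bap1flox cells. Tle3, a corepressor, fell from 138, 181 and 194 to 78.5 and 76.9 CPM (-1.23 ± 0.12, Bap1flox -2.03), and it was higher in Bap1LysM OC replicates 4 to 6 by 1.49 (adjusted p = 0.00016). Fam131a, Srgn and Pld2 had responses of 0.57, 0.31 and -0.08, none past the test (adjusted p = 0.084, 0.13 and 0.65), against -1.22, -0.79 and -0.94 in Bap1flox cells. Fam131a passed without the number 1 libraries (0.98, adjusted p = 0.013), without BMM library 1 or OC library 1 (adjusted p = 0.031 and 0.045), and Srgn under the block (0.31, adjusted p = 0.048). P2ry14, Setd7, Tle3, Fam131a, Srgn and Pld2 had an adjusted interaction p of 0.33.

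At the other end stood Cspg4, Col4a5, Notch4, Pold2, Nup210, Nubp1, Dscc1 and Ndc1. Cspg4, the NG2 proteoglycan, rose from 1.21, 1.55 and 1.26 to 2.80 and 4.06 CPM (1.25 ± 0.20) where Bap1flox cells reached 9.97 to 11.3 CPM (2.77). Col4a5, a collagen IV chain, was at 6.27, 10.2 and 7.26 CPM in BMMs and 15.2 and 11.2 CPM in OCs (0.66 ± 0.24, adjusted p = 0.053), and Bap1flox OCs reached 24.1 to 26.6 CPM. Notch4, a Notch receptor, was at 2.17, 2.30 and 1.76 and 1.87 and 3.32 CPM, which overlap, and Bap1flox OCs reached 7.75 to 9.95 CPM. All 3 were lower in Bap1LysM OC replicates 4 to 6, with differences of -1.77, -1.58 and -1.71 on the log2 scale (adjusted p = 0.00082, 0.00077 and 0.0018). Pold2, a subunit of DNA polymerase delta (0.50 ± 0.19, Bap1flox 1.66), and Dscc1, which works in sister chromatid cohesion (0.51 ± 0.20, Bap1flox 1.69), belong to replication but were in no list. Nup210 and Ndc1, of the nuclear pore, had responses of 0.50 and 0.68 against 2.10 and 1.84. Without BMM library 2 the responses of Col4a5, Pold2, Dscc1 and Nup210 passed (adjusted p = 0.029, 0.026, 0.023 and 0.020), and that of Ndc1 passed in the full comparison but not without OC library 2, BMM library 1 or BMM library 3 (adjusted p = 0.10, 0.062 and 0.063) or under the block (adjusted p = 0.050). Nubp1, which works in iron-sulphur cluster assembly, had 0.48 ± 0.09 against 1.05. The adjusted interaction p was 0.33 for all 8.

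**Figure D5:**
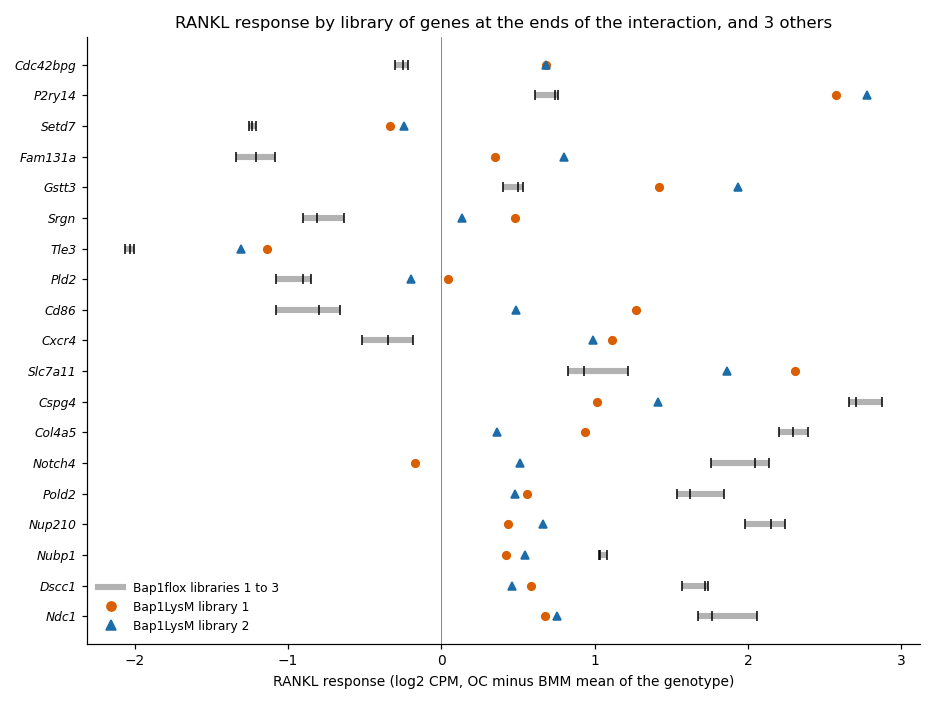
Log2 response by library of the 8 genes with the smallest interaction p in each direction and of Cd86, Cxcr4 and Slc7a11, with the Bap1flox libraries as ticks on a grey bar and Bap1LysM libraries 1 and 2 as an orange circle and a blue triangle. Cdc42bpg lies at 0.68 in both Bap1LysM libraries and at -0.30 to -0.22 in the Bap1flox libraries.

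Interferon-stimulated genes separated the 2 OC libraries of the Bap1LysM cells. Of 38 genes 35 lay above the BMM mean in library 1 and 3 in library 2, and 32 were above 0 in the first and below 0 in the second, against 10.8% of all genes. The list's median was 0.59 in library 1, -1.30 in library 2 and -0.23 to 0.09 in the Bap1flox libraries. Summed CPM was 6627, 2660 and 3584 in BMM libraries 1, 2 and 3 and 6090 and 1899 in OC libraries 1 and 2, so both number 1 libraries were the highest of their group. Paired by number, the medians were -0.13 and -0.54. In the full comparison 3 genes (Gbp3, Gbp7 and Cxcl10) rose and 1, Ifi27l2a, fell, and without the number 1 libraries 0 rose and 23 fell. The interaction lay below 0 at an unadjusted p under 0.05 in 0 of the 38 in the full comparison, in 24 without OC library 1 and in 30 without the number 1 libraries. With the replicate number as a block 3 rose and 12 fell. In OC replicates 4 to 6, 20 of the 38 were lower in Bap1LysM cells and 0 were higher (median difference -0.65, against 18.2% lower over all genes). The neutrophil and plasma cell markers were higher in the same Bap1LysM libraries, and the part of such cells was not tested. Cxcl10, a chemokine that interferon induces, went from 4.65, 3.62 and 6.90 to 54.9 and 7.69 CPM (2.58 ± 0.73, adjusted p = 0.018, but 0.59 without OC library 1, 0.050 without BMM library 1 and 0.060 without BMM library 2). Gbp3 and Gbp7 did not pass without OC library 1 either (adjusted p = 0.41 and 0.12) or without BMM library 2 (adjusted p = 0.098 and 0.067), nor Gbp3 without BMM library 3 (adjusted p = 0.084) or Gbp7 without OC library 2 (adjusted p = 0.057). Isg15, a ubiquitin-like protein, was at 83.5, 22.6 and 33.4 CPM in BMMs and 97.9 and 29.9 CPM in OCs, and did not pass (0.37 ± 0.57, adjusted p = 0.65). The pattern of the interferon response element, 2 words TTTC with any 2 bases between them, stood in 19 of 29 matched promoters of the list (65.5%), against 4.03% of tested genes. That of Isg15 is shown as the example, at chr4:156200769-156201068 on the minus strand of GRCm38.p6, with 3 overlapping matches on the other strand in capitals.
Isg15: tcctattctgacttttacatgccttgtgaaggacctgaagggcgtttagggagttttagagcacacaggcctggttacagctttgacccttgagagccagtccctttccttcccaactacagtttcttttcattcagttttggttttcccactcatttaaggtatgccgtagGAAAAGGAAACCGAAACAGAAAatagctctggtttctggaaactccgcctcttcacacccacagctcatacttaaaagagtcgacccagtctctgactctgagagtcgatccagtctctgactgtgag

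The chemokine list also had different medians in the 2 libraries. Of its 26 genes 6 were above 0 in library 1 and below 0 in library 2, a larger share than the 10.8% of all genes. The median of 26 chemokines and receptors was 0.49 in library 1 and -0.80 in library 2, and 7 rose and 6 fell in all, or 5 and 9 of 25 without the number 1 libraries and 6 and 3 of 25 without OC library 2. Ccl22 rose from 0.358, 0.199 and 0.229 to 4.98 and 8.82 CPM (4.59 ± 0.38, Bap1flox 3.48), and Ccr2, the monocyte chemokine receptor, fell from 164, 190.0 and 195 to 7.49 and 20.5 CPM (-3.84 ± 0.39, Bap1flox -3.71). Cd83, a maturation marker of antigen-presenting cells, fell by 1.84 on the log2 scale, from 13.5, 11.4 and 13.6 to 4.13 and 3.50 CPM, and to 1.59 to 2.22 CPM in Bap1flox cells (-3.52). Of 10 MHC class II genes 2 fell and 0 rose, with medians of -0.11 and -0.09 in libraries 1 and 2, above -0.42 to -0.24 in the Bap1flox libraries. The counts were 1 lower and 1 higher without OC library 1 and 2 and 2 without both number 1 libraries. In OC replicates 4 to 6, 6 of the 10 were higher in Bap1LysM cells and 1 was lower, against 15.4% higher over all genes. All 9 neutrophil markers, the 3 plasma cell markers tested (median difference 3.602) and the 2 dendritic cell markers tested (1.92) were higher in the same libraries, and their part in this difference was not tested. Of 16 inflammatory cytokines and mediators 4 rose and 2 fell, against 4 and 6 in Bap1flox cells, and 4 fell without BMM library 1. Il1rn, the interleukin 1 receptor antagonist, rose from 6.24, 4.99 and 8.41 to 116 and 140.2 CPM (4.18 ± 0.34, Bap1flox 3.38).

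Cholesterol synthesis fell in both genotypes. Of 32 genes of cholesterol and lipid synthesis 18 fell and 1 rose in each genotype, and the 1 that rose in Bap1LysM cells was the exporter Abcg1 (1.69 ± 0.45, adjusted p = 0.015), which did not pass without OC library 2 (adjusted p = 0.13) or BMM library 3 (adjusted p = 0.054) or under the block (1.72, adjusted p = 0.066). Dhcr7, the last enzyme of cholesterol synthesis, fell from 37.9, 41.3 and 37.4 to 22.8 and 19.2 CPM (-0.98 ± 0.12, Bap1flox -0.96). Of 17 factors that couple osteoclasts to osteoblasts 7 rose, among them Sema4d (1.61 ± 0.19) and Pdgfb (2.68 ± 0.39), and 1, Igf1 (-1.97 ± 0.42), fell. In the ATF4 and serine synthesis list 10 of 26 rose and 0 fell, led by the glutamine transporter Slc1a5 (26.5, 44.4 and 28.8 to 144 and 377 CPM, 2.85 ± 0.32), and in Bap1flox cells 10 rose and 4 fell. Only 3 of these rose without OC library 2, and 3 fell without OC library 1 and 4 without both number 1 libraries. Of 29 genes of branched-chain amino acid degradation 4 rose and 4 fell, about the share over all genes, and 6 rose and 8 fell without OC library 1, with Bcat2 (1.07 ± 0.16) up and Ivd (-0.76 ± 0.13) down. Of 24 NRF2 targets 9 fell and 1, Slc7a11, rose, against 12 and 2 in Bap1flox cells, and without the number 1 libraries 15 fell. Of 19 iron genes 5 fell and 3 rose, against 8 and 2, and 3 fell without OC library 2 or BMM library 3. Slc40a1, the iron exporter ferroportin, fell from 522, 333 and 472 to 147 and 49.1 CPM (-2.25 ± 0.44), with 32.8 to 46.6 CPM in Bap1flox OCs (-3.90).

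Of the 14 genes of the BAP1 complex and its partners 0 passed at a fold of 1.5. Of 34 Polycomb genes 6 rose (3 without OC library 2) and 8 fell, against 9 and 11 in Bap1flox cells. Jarid2, which recruits Polycomb complex 2, rose from 39.3, 41.9 and 35.1 to 127 and 221 CPM (2.05 ± 0.18, Bap1flox 1.98). Phf1 fell from 33.5, 31.3 and 42.6 to 16.4 and 12.9 CPM (-1.38 ± 0.17, Bap1flox -2.15), and its Bap1LysM BMM levels lay below all Bap1flox BMM libraries (66.3 to 69.7 CPM). Ogt, the O-GlcNAc transferase bound by the BAP1 complex, did not pass in Bap1LysM cells (-0.40 ± 0.15, adjusted p = 0.059, but 0.031 without BMM library 2) and had a response of -1.27 in Bap1flox cells. Of 15 BCL2 family genes 3 rose, the BH3-only genes Pmaip1 (2.02 ± 0.26), Bcl2l11 (0.81 ± 0.21) and Bmf (1.31 ± 0.41), and 2 fell, against 1 and 4 in Bap1flox cells. Without OC library 2 Bcl2l11 and Bmf did not pass (adjusted p = 0.11 and 0.20), and Bmf did not pass under the block (1.31, adjusted p = 0.096) or without BMM library 2 or 3 (adjusted p = 0.085 and 0.078). Among 13 progenitor genes 3 rose and 4 fell. Cd34 fell from 13.9, 14.6 and 5.65 to 1.22 and 2.502 CPM (-2.74 ± 0.51), with 0.351 to 0.867 CPM in Bap1flox BMMs.

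Beside the stromal markers given at the start, markers of other cell types summed to at most 309 CPM in the 5 libraries. The 9 neutrophil markers summed to 224 to 309 CPM in BMM and 172 and 194 CPM in OC libraries, and none passed the test. The plasma cell markers summed to 56.6 to 121 CPM in BMMs and 31.3 and 60.8 CPM in OCs, with Ighm falling from 28.4, 81.6 and 103 to 5.02 and 12.5 CPM (-3.14 ± 0.58). The 5 T cell markers summed to 2.84, 0.618 and 2.66 CPM in BMMs and 9.18 and 1.19 CPM in OC libraries 1 and 2, with Cd4 at 2.75, 0.618 and 2.62 and 9.15 and 1.19 CPM (past the test under the block, adjusted p = 0.013) and 1 marker at 0 in all 5 libraries. The dendritic cell markers summed to 2.94 to 3.40 CPM in BMMs and 5.33 and 9.38 CPM in OCs, the mast cell and basophil markers to 1.02 to 2.14 CPM and 2.89 and 3.37 CPM, and the B cell markers to 3.18 to 3.48 CPM and 1.18 and 1.74 CPM. The erythroid markers summed to at most 0.421 CPM, with 2 of 6 at 0 in all 5 libraries. The part of these cells in the responses above was not tested.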

How the data were processed

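RNA was sequenced from oligo-dT libraries as 150-base paired reads. The authors aligned the reads with STAR 2.5.1a to the GRCm38 mouse genome, Ensembl annotation, and made gene counts with featureCounts 1.4.6-p5 from reads with 1 unambiguous alignment. The strand setting is not given in the sources used here, so overlapping antisense genes cannot be told apart. The deposited tables hold read counts, CPM and RPKM per gene. The deposited CPM equalled the count scaled to the library total and the deposited RPKM the CPM per kilobase, and only the counts were tested. CPM values in the text are not adjusted for TMM factors.

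Ribosomal RNA genes (355) were left out. Genes with a CPM above 1 in at least 2 of the 11 libraries of replicates 1 to 3 were kept (13637 genes). edgeR 4.0.16 in R 4.3.3, with TMM factors and the quasi-likelihood test, was fitted to the 4 groups together with 7 residual degrees of freedom and a common biological coefficient of variation of 0.210. All groups share this spread, though the Bap1LysM OC libraries were less alike. The chi-square per gene was 298 between Bap1LysM OC libraries 1 and 2 and 13.9 to 52.3 between Bap1flox OC libraries. It was 77.2 to 169 between Bap1LysM BMM libraries and 8.96 to 97.4 between Bap1flox BMM libraries. With only the Bap1LysM libraries in the fit 1387 genes rose and 1002 fell, and with voomWithQualityWeights 1481 rose and 1058 fell. p-values were adjusted by the Benjamini-Hochberg method over all genes, and a gene was called at an adjusted p under 0.05, with a fold of at least 1.5 for counts. A gene is said to have passed the test on its adjusted p alone. The response of a library is its log2 CPM (TMM factors, prior count 2) minus the mean of the BMM libraries of its genotype. OC replicates 4 to 6 were fitted separately, with 12588 genes. The neutrophil, plasma cell and dendritic cell markers tested were higher in the Bap1LysM libraries of this set. The part of such cells in any difference given from it was not tested.

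The gene lists and the part of the data described were chosen with earlier results of these data known. Genes named are Bap1, Lyz2 and a fixed set of osteoclast genes; the 8 genes with the largest change in each direction (adjusted p under 0.05, no overlap between groups, mean CPM of at least 5); the 8 with the smallest unadjusted interaction p in each direction, since 0 passed; and from each list up to 3 genes per direction with the smallest p and up to 2 with the smallest interaction p. Genes called in a list of 5 or fewer are also named, chosen after their values were seen. Some single genes that this rule gives are not reported here.

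Samples with the same number deviated together, with correlations of 0.50 and 0.36 between BMM and OC deviations for Bap1LysM numbers 1 and 2, which mirror each other, and 0.37, 0.23 and 0.31 for Bap1flox. The labels do not say what a number shares. A fit with the number as a block was run beside the unblocked one. The study used voomWithQualityWeights, and its design formula is not given in the sources used here. Other alternatives were other size factors and filters, DESeq2 1.42.0, limma 3.58.1 with voomWithQualityWeights, other sets of libraries and each library left out. On simulated counts for 13637 genes with 200 changed, edgeR recovered 89.7% of 4-fold and 48.5% of 2-fold changes in the Bap1LysM response and 76.3% and 25.2% in the interaction, with 4.2% and 5.7% of calls false. Each gene had the same spread in all simulated libraries, with no shift shared by the genes of a library. The measured Bap1LysM OC libraries were less alike, so these rates cannot be carried over to them. Intervals and floors cover counting error only. Promoter sequences are from RefSeq on GRCm38.p6. The E2F, CCAAT, E-box, AP-1 and interferon patterns were each searched in the cell cycle, Myc, interferon and bone resorption lists. Only some of these pairs are given. The AP-1 word TGANTCA, with N for any base, stood in 9 of 29 matched promoters of the interferon list (31%), against 6.35% of tested genes.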

Additional observations from a re-analysis of the deposited data

Results flagged for a closer look

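Cdc42bpg had a response above 0 in both Bap1LysM libraries and below 0 in all 3 Bap1flox libraries, and the 2 responses differed by 0.94 on the log2 scale. The difference in Cd86 was 1.84 and that in Cxcr4 1.38, with the same split of the libraries. The interaction term was tested for each by edgeR and its adjusted p did not pass, at 0.10 for Cdc42bpg and 0.33 for Cd86 and Cxcr4.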

How the results depend on the processing

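With each library left out in turn, the genes that rose in Bap1LysM cells numbered 1304 to 2407, those that fell 1073 to 2441 and those with an interaction call 0 to 119, and Bap1flox cells gave 2614 to 2847 and 2523 to 2854. The lower counts and the 119 came without OC library 2. The genes that fell numbered 1058 with voomWithQualityWeights, 1002 with only the libraries of the genotype and 2704 with all 4 number 1 libraries left out, which was chosen after seeing the data. The interaction called 113 genes with DESeq2, 1440 with all 17 libraries and a term for the library set, and 95 without all number 1 libraries; the cause was not tested.

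Of single genes, the Bap1 LysM response changed sign to -0.0161 with RLE factors and with DESeq2, -0.0139 with no filter and -0.0595 with all 17 libraries, and ranged from -0.0406 to 0.0462 with 1 library left out. The Lyz2 LysM response changed sign to -1.06 with all 17 libraries and to -1.39 without the number 1 libraries of Bap1LysM cells or of both genotypes, and ranged from -7.98 to 6.69 with 1 library left out. The Bcl6 LysM response ranged from -1.24 without OC library 1 to 0.0259 without OC library 2. For the fixed osteoclast genes and those with the largest changes, 787 fits kept direction and side of the threshold, 7 lost and 6 gained the call, and the 16 that changed sign were of these 3 genes. The interaction of the 16 genes named for it kept its direction, short of the threshold in 325 fits and past it in 43.

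With the replicate number as a block, the pairing of same-numbered libraries, 1813 genes rose and 1805 fell in Bap1LysM cells, 0 interactions passed with 2354 at an unadjusted p under 0.05, the Bap1 LysM response was -0.0085 and the Lyz2 LysM response -0.96. Cell cycle genes with an unadjusted interaction p under 0.05 below 0 numbered 22 to 44 over the 5 Bap1LysM libraries left out in turn, 27 without all number 1 libraries, 26 with voomWithQualityWeights and 44 with the block. The 2 OC libraries limit every statement on spread after RANKL.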
